A study of Nasonia vitripennis with 70 samples.

Results

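The data below cover 6 genes of the cell cycle machinery in Nasonia vitripennis, a parasitoid wasp in which males develop from unfertilised eggs. They are the cyclin cycB, the cyclin-dependent kinases Cdk1, Cdk2 and Cdk4, the anaphase activator fzy and the ubiquitin ligase subunit Skp1. They were listed by name, with earlier results of these data known, and are 6 of the 14621 genes in the deposited count table. Cyclin B bound to Cdk1 is the kinase that drives cells into mitosis and meiotic divisions. The product of fzy, the fly homologue of Cdc20, activates the anaphase promoting complex, which then marks cyclin B for destruction and lets chromosomes separate. Ovaries are known in other insects to store such transcripts in eggs, because the first embryonic divisions run on maternal RNA.

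The study sequenced poly-A RNA from heads and abdomens of the WGDL strain, a line in which colchicine had induced a duplication of the whole genome. Females were diploid (2N) or triploid (3N) and came from generations F2 and F14, and males were haploid (1N) or diploid (2N) and came from generations F5 and F15. All wasps belonged to this strain and were taken 1 day after emergence. The 16 groups held 4 or 5 libraries each, 70 in all, with totals of 12.2 to 25.1 M expected counts. Nothing in the labels says whether libraries of a group came from separate animals, so p-values measure only the spread between these samples, which may be technical. Generation cannot be told apart from the time of collection, and because the males came from other generations than the females, sex cannot be told apart from generation either.

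Levels are given as TPM, a unit with a fixed sum in each library that is scaled by transcript length and allows genes to be set side by side. CPM, the count relative to the TMM-scaled library total, is used only within a gene. Fold changes are log2 differences with their standard error (SE) from edgeR's quasi-likelihood test, and a gene is called higher or lower at a Benjamini-Hochberg adjusted p below 0.05 over all genes tested in that comparison. Each share of genes called beside the members comes from this test with all libraries, also where calls under other settings follow. In these whole heads and abdomens, fewer cells of a type and less RNA per cell cannot be told apart.

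One library went against its label. C46, labelled as an F5 diploid male abdomen, held 5 head markers (Lop1, Pdf, HisCl1, Or1 and white) at a summed level of 4224 TPM, with Lop1, a long-wavelength opsin, at 3337 TPM. All other abdomens lay between 0.13 and 4.6 TPM for the same sum, and heads lay between 1230 and 15855 TPM. Fold changes of comparisons that include C46 are given with and without it below for the members named in them. Among male abdomens C46 holds the lowest values of cycB, fzy and Skp1 and the highest of Cdk2, and without it the lowest were 0.26, 1.88 and 107 TPM and the highest 5.01 TPM. The head and abdomen labels were otherwise matched by these markers, and 3 oocyte markers (oskar, nanos and Hb) summed to 661 to 1912 TPM in female abdomens against 0.78 to 9.19 TPM in male abdomens. Markers of testis and sperm were not analysed here. Of the members, Cdk2, Cdk4, fzy and Skp1 each overlap 1 other gene in the reference annotation, and because the library kit does not mark strand, reads of such pairs cannot be told apart.

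The medians of all 6 members were highest in female abdomens, and for all but Cdk2 every female abdomen lay above every other library. In the 17 female abdomens cycB ranged from 158 to 1029 TPM with a median of 815 TPM. In the 18 male abdomens cycB ranged from 0.16 to 13.7 TPM, with a median of 2.27 TPM. Heads held almost none of this cyclin, at 0.04 to 0.78 TPM in females and at most 0.72 TPM in males. The head values rest on 0 to 16 expected counts per library, and 1 F15 diploid male head, C94, is listed at 0.

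Cdk1, the mitotic kinase that cyclin B activates, had a median of 322 TPM in female abdomens, with a range of 73.9 to 422 TPM. Its levels in the other tissues lay close together: 0.27 to 3.4 TPM in male abdomens, 0.46 to 5.04 TPM in female heads and 0.5 to 3.25 TPM in male heads. Cdk4, the partner of cyclin D in G1, ranged from 50.4 to 211 TPM in female abdomens. Elsewhere it stayed between 0.85 and 4.44 TPM in male abdomens, 1.28 and 13.7 TPM in female heads and 0.89 and 6.22 TPM in male heads. Cdk2, which in animals acts with cyclin E at the start of DNA replication, stood out least among the kinases. It ranged from 5.27 to 74.9 TPM in female abdomens and from 4.34 to 13.4 TPM in female heads, so these ranges overlapped. Male abdomens had the lowest Cdk2 levels of the 4 tissue and sex classes, at a median of 2.52 TPM against 6.15 TPM in male heads.

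fzy had a median of 304 TPM in female abdomens, close to that of Cdk1, and 6.73 TPM in male abdomens. Its medians in heads were 1.6 TPM in females and 2.1 TPM in males. Skp1, the adaptor that ties F-box proteins to the cullin in SCF ubiquitin ligases, was the only member abundant in every library. It ranged from 351 to 966 TPM in female abdomens, 74.7 to 302 TPM in male abdomens, 83.4 to 156 TPM in female heads and 57.5 to 134 TPM in male heads. The order of the classes therefore differed by gene. Female abdomens were first for each member, but male abdomens came second in median for cycB, fzy and Skp1, next to last for Cdk1 and last for Cdk2 and Cdk4.

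**Figure D1:**
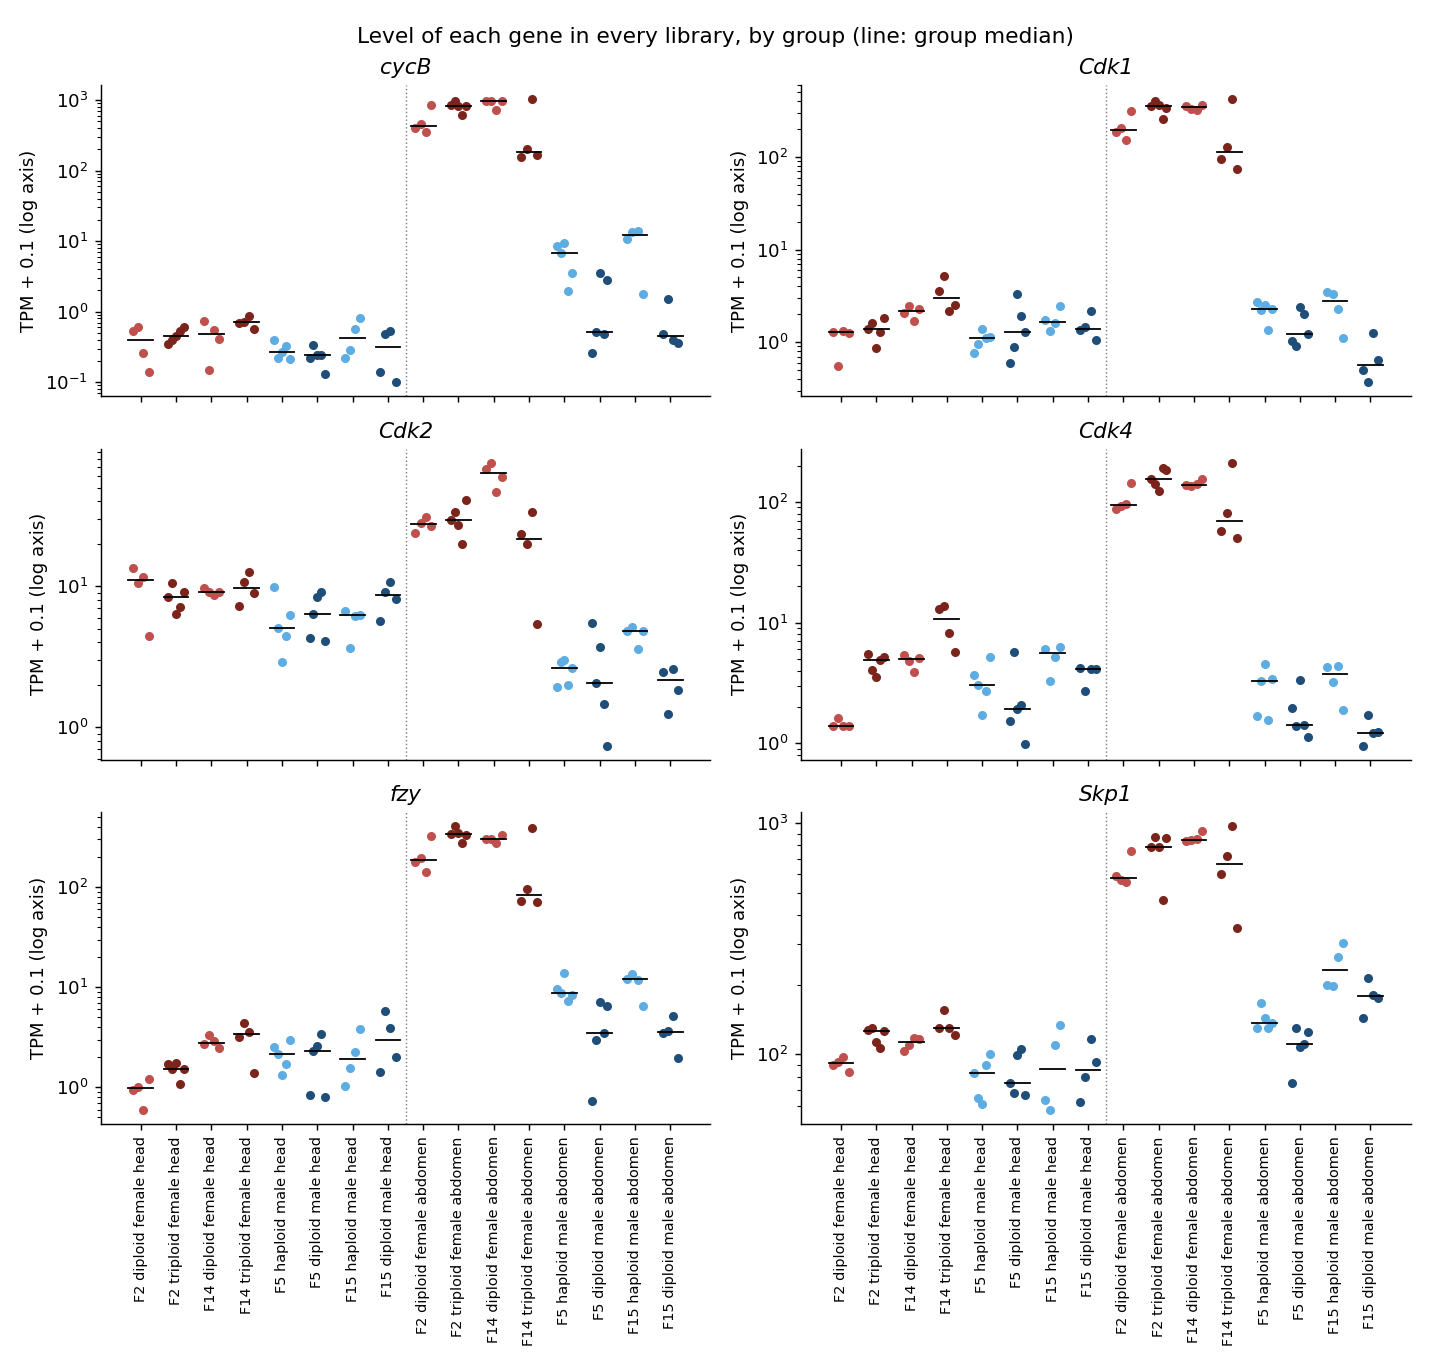
TPM plus 0.1 on a log axis for the 6 members in all 70 libraries, by the 16 groups of tissue, sex, generation and ploidy. Each point is a library and each line a group median. The 4 female abdomen groups stand above all others for cycB, Cdk1, Cdk4, fzy and Skp1, while Cdk2 levels of female abdomens overlap those of heads.

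Abdomens were compared with heads first in females. All 6 members were called higher in abdomens, beside 83.8% of 12964 genes called in either direction and 39.7% called higher. The log2 difference was 10.97 (SE 0.45, adjusted p = 2.17e-30) for cycB, and 7.61 (SE 0.25, adjusted p = 3.11e-35) for Cdk1. It was 7.44 (SE 0.28, adjusted p = 1.64e-32) for fzy and 5.27 (SE 0.20, adjusted p = 9.92e-32) for Cdk4. Skp1 rose by 3.03 (SE 0.10, adjusted p = 2.33e-34), and Cdk2, whose libraries overlapped, by 2.17 (SE 0.17, adjusted p = 3.38e-18). The members' median was 6.35, against -0.22 over all genes. Of the 4 genes that overlap a member, 2 were called higher and 2 lower, and the counts were the same in males.

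In males the same contrast split the members. Of the 6, 5 were called, 3 higher and 2 lower in abdomens, beside 74.4% of all genes, 36.5% higher and 37.8% lower. Higher in abdomens were cycB by 3.98 (SE 0.37, adjusted p = 1.68e-14) and fzy by 1.83 (SE 0.21, adjusted p = 3.69e-11). Skp1 was higher too, by 1.24 (SE 0.09, adjusted p = 1.07e-17). Cdk2 fell by 0.93 (SE 0.16, adjusted p = 8.17e-07). Cdk4 was lower at -0.42 (SE 0.17, adjusted p = 0.0255), a call that was lost under DESeq2's size factors, DESeq2, a fit of the compared groups only and without each of C91, C89, C81 or C42. Cdk1, at 0.40 (SE 0.21, adjusted p = 0.0705), missed the threshold. Without C46, which carries head transcripts, Cdk1 was called at 0.44 (adjusted p = 0.0484) and Cdk4 stayed called at -0.41 (adjusted p = 0.0325). Without it cycB had 4.05, fzy 1.90, Skp1 1.28 and Cdk2 -1.01, all still called.

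The difference between these tissue contrasts was tested directly. The abdomen-to-head difference was larger in females for all 6 members, beside 77.8% of genes called in either direction and 34.8% called higher. Females exceeded males by 7.21 (SE 0.30, adjusted p = 2.45e-29) for Cdk1, by 7.0 (SE 0.55, adjusted p = 2.45e-17) for cycB and by 5.69 (SE 0.26, adjusted p = 1.16e-27) for Cdk4. The excess was 5.61 (SE 0.32, adjusted p = 2.14e-23) for fzy, 3.10 (SE 0.23, adjusted p = 2.51e-18) for Cdk2 and 1.79 (SE 0.13, adjusted p = 2.71e-18) for Skp1. Each of these 6 calls held under every alternative tried, and without C46 the values were 7.17 for Cdk1, 6.92 for cycB, 5.68 for Cdk4, 5.54 for fzy, 3.18 for Cdk2 and 1.75 for Skp1.

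Male and diploid female abdomens were compared at 2 male ploidies. The haploid and diploid males were set against the same diploid females, so the contrasts share those libraries. All 6 members were called lower in males in both contrasts, and in neither did a male library reach the level of a female library. Of 12308 genes, 85.5% were called against haploid males and 84.4% against diploid males, with 35.1% and 34.9% of all genes lower. For haploid males the log2 difference was -6.51 (SE 0.35, adjusted p = 4.36e-16) for Cdk1 and -6.11 (SE 0.59, adjusted p = 1.38e-10) for cycB. For Cdk4 it was -4.97 (SE 0.29, adjusted p = 1.52e-15) and for fzy -4.27 (SE 0.36, adjusted p = 7.19e-12). Cdk2 had -3.30 (SE 0.29, adjusted p = 1.22e-11), and Skp1 moved least, with -1.64 (SE 0.15, adjusted p = 3.88e-11).

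For diploid males the same values were -9.06 (SE 0.69, adjusted p = 5.49e-13) for cycB and -7.72 (SE 0.38, adjusted p = 3.79e-17) for Cdk1. They were -6.00 (SE 0.30, adjusted p = 7.18e-17) for Cdk4, -5.56 (SE 0.39, adjusted p = 7.58e-14) for fzy, -3.78 (SE 0.29, adjusted p = 9.75e-13) for Cdk2 and -1.89 (SE 0.15, adjusted p = 1.82e-12) for Skp1. Leaving out C46 gave -8.91 for cycB, -7.65 for Cdk1, -5.98 for Cdk4, -5.42 for fzy, -3.95 for Cdk2 and -1.82 for Skp1, and all 6 stayed called. The median of all genes was itself 0.60 and 0.61 in these contrasts, 1.04 and 1.00 under DESeq2 and 0.25 and 0.08 on total counts, and the members lay below it under each scaling. The oocyte markers fell with the members, 3 of 3 in both contrasts, and their part in the result was not tested. Of the 4 genes that overlap a member, 2 were called lower and 1 higher in each contrast.

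In heads the members' differences between the sexes were smaller than in abdomens. In haploid males 3 of 6 members were called against diploid females, beside 32.4% of 11785 genes, 17.7% higher and 14.7% lower. Cdk4 was higher by 0.92 (SE 0.24, adjusted p = 0.00444), which held with each library left out and was lost on the 3 TPM scales. fzy was higher by 0.68 (SE 0.27, adjusted p = 0.0469), lost in 13 of 17 fits with 1 library left out and under 5 of 9 other settings, and Cdk2 was lower at -0.46 (SE 0.18, adjusted p = 0.0453), lost in 14 of 17, on total counts and when only the compared groups were fitted. Of the 5 head markers 1 was called higher and 1 lower in this contrast, and their part was not tested. The diploid female heads set against males came from F2 and F14, and Cdk4 and fzy differed between those female groups. Cdk4 was higher at F14 by 1.3 and fzy by 1.27, each more than its excess in haploid males. Whether that excess is found against F2 or F14 diploid females alone was not tested. In diploid males none of 6 was called by edgeR, beside 9.00% of genes, with differences from -0.79 to 0.77 and adjusted p from 0.0651 to 0.789. At an unadjusted p below 0.05 1 member, fzy, passed there, and DESeq2 called 1.

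Within female abdomens cycB, Cdk1 and fzy varied less relative to each other than in level. Over the 17 libraries fzy ranged from 0.74 to 1.06 times Cdk1 in TPM, and cycB from 1.59 to 2.87 times. Cdk4 ranged from 0.34 to 0.73 times Cdk1, whereas Cdk2 ranged more widely, from 0.071 to 0.24 times. The highest library exceeded the lowest 5.71-fold for Cdk1, 5.67-fold for fzy, 6.53-fold for cycB, 4.19-fold for Cdk4, 14.2-fold for Cdk2 and 2.75-fold for Skp1. Of the oocyte markers over the same libraries, oskar, the germ plasm organiser, spanned 1.95-fold, nanos, a translational repressor of the germ line, 7.84-fold, and Hb, a maternal patterning factor, 8.31-fold. In haploid male abdomens fzy stood at 3.51 to 6.37 times Cdk1, so every such library lay above every female abdomen in this proportion. Diploid male abdomens ranged from 0.68 times in C46, the library with head transcripts, to 13.2 times. Apart from C46 their lowest was 1.78 times in C49, also above every female abdomen. Cdk1, the divisor, was low in male abdomens of both ploidies, so these proportions rest on small values.

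At F2, triploid female abdomens were set beside diploid ones. Cdk1 stood at 186, 208, 151 and 316 TPM in the diploids and at 357, 405, 365, 260 and 336 TPM in the triploids. The groups overlapped through the diploid library C30, at 316 TPM, and the triploid library C39, at 260 TPM. fzy ran alongside, at 177, 195, 141 and 322 TPM in diploids and 339, 404, 350, 276 and 331 TPM in triploids. None of the 6 members was called by edgeR, beside 7.49% of genes: differences ran from 0.17 for Cdk2 to 0.73 (SE 0.44, adjusted p = 0.304) for fzy, all positive in sign, with adjusted p from 0.23 to 0.806. None had an unadjusted p below 0.05, and DESeq2 called 0. Without C30 edgeR called no member either, with an adjusted p of 0.12 for Cdk1 and 0.147 for fzy. Fitting only the compared groups called Cdk1, Cdk4 and fzy, at adjusted p of 0.0409, 0.0443 and 0.0435. The 7.49% belongs to the main fit, and the share of genes called in this other fit is not given here.

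At F14 the signs were turned and 1 member, Cdk2, was called, beside 19.9% of genes and 1.77% called lower. Cdk2 stood at 68.2, 74.9, 46.2 and 59.5 TPM in the diploid abdomens and at 23.3, 19.9, 33.4 and 5.27 TPM in the triploid ones. Each triploid library lay below each diploid one. The log2 difference was -1.41 (SE 0.39, adjusted p = 0.0115); it was -1.11 (adjusted p = 0.057) without C69, the lowest library, and was also lost when only the compared groups were fitted.

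Of the other members, cycB, Cdk1, Cdk4 and fzy had a single triploid library far above the rest, while no Skp1 library was flagged as apart. cycB stood at 962, 957, 709 and 968 TPM in F14 diploid abdomens, and at 158, 205 and 165 TPM in 3 of the triploid ones, while the other, C68, held 1029 TPM. Cdk1 had 352, 334, 322 and 365 TPM in diploids, and 96.2, 129 and 73.9 TPM in those 3 triploids against 422 TPM in C68. fzy had 306, 304, 274 and 330 TPM in diploids, and 72.2, 95.6 and 71.4 TPM in triploids against 393 TPM in C68. C68 was thus above every diploid library for cycB, Cdk1 and fzy, and the 3 other triploids below every one. With all libraries the differences were -1.04 (SE 0.70, adjusted p = 0.284) for cycB, -0.75 (adjusted p = 0.182) for Cdk1 and -0.76 (adjusted p = 0.235) for fzy. Among 9 other settings cycB was called lower under 2, and Cdk1 and fzy under 3 each. Without C68 5 of the 6 members were called lower: cycB at -2.02 (adjusted p = 0.0303), Cdk1 at -1.46 (adjusted p = 0.0036), fzy at -1.59 (adjusted p = 0.0062), Cdk2 at -1.68 (adjusted p = 0.0029) and Cdk4 at -0.87 (adjusted p = 0.0386). The share of all genes called without C68 was not kept, so this count cannot be set beside it.

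Other tissue markers moved in these libraries too. The oocyte markers summed to 1544 to 1912 TPM in the F14 diploid abdomens, to 896, 995 and 661 TPM in triploids C66, C67 and C69, and to 1583 TPM in C68, with 0 of 3 called. The 3 muscle markers (Tm1, Tm2 and Zasp66) summed to 673 to 800 TPM in the diploids, to 721 TPM in C68, to 1132 and 941 TPM in C66 and C67 and to 5449 TPM in C69, with 2 of 3 called higher in triploids. Their part in the members' values was not tested.

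The change of the ploidy difference from F2 to F14 was tested in the same fit. Of the 6 members 2 were called, both lower, beside 32.9% of genes called in either direction and 8.04% lower. Cdk2 had -1.57 (SE 0.53, adjusted p = 0.0241) and Cdk1 -1.46 (SE 0.56, adjusted p = 0.0452), while cycB had -1.72 (adjusted p = 0.164), fzy -1.49 (adjusted p = 0.0712), Cdk4 -0.97 (adjusted p = 0.121) and Skp1 -0.48 (adjusted p = 0.206). Among 9 other settings cycB and Cdk4 were called lower under 3 each and fzy under 5. The Cdk1 call was lost in 14 of 17 fits with 1 library left out and on total counts. Without C69 no member was called, and without C68 5 were, with cycB at -2.70 (adjusted p = 0.0216) and fzy at -2.33 (adjusted p = 0.0019). No share of all genes was kept for these fits.

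**Figure D2:**
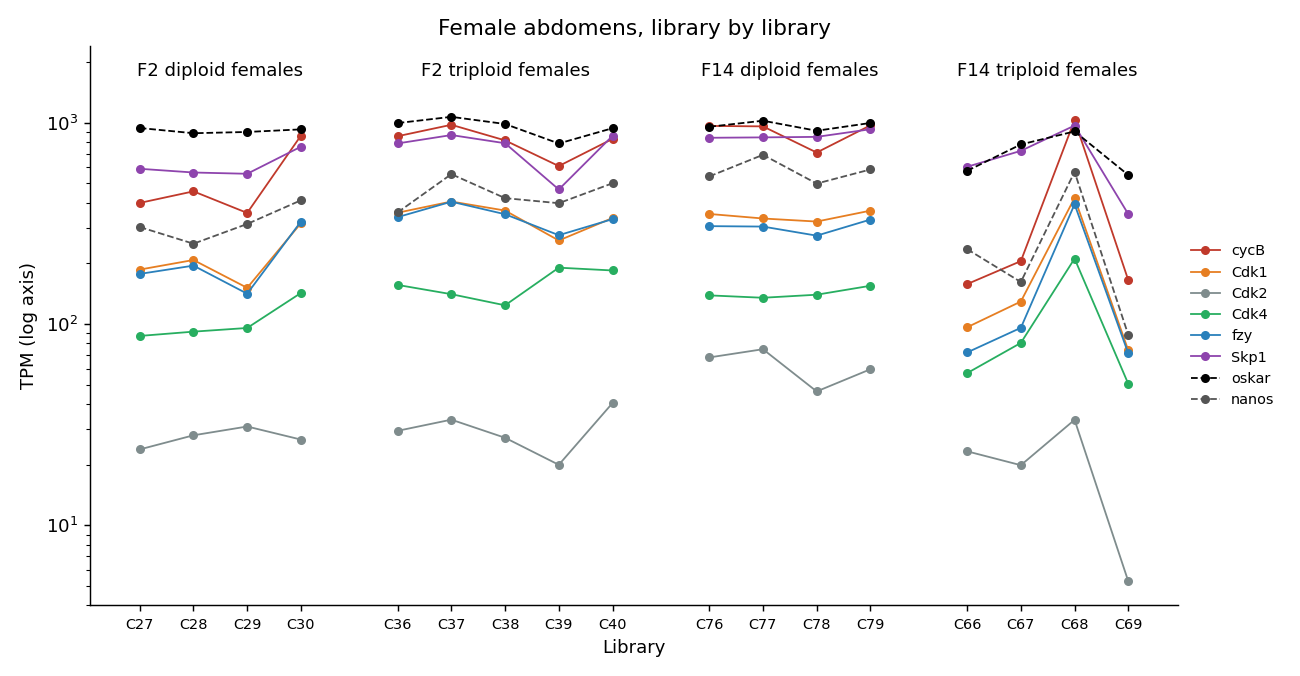
TPM on a log axis in each of the 17 female abdomen libraries, grouped by generation and ploidy, for the 6 members (solid) and the oocyte markers oskar and nanos (dashed). cycB, Cdk1 and fzy run in parallel, and in the F14 triploid group C68 stands at 1029 TPM of cycB while the other 3 libraries stand at 158 to 205 TPM.

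Setting F14 beside F2 within a ploidy gave no called member by edgeR in diploid abdomens, beside 0.171% of genes, with 1 member, Cdk2, at an unadjusted p below 0.05 and 0 called by DESeq2. Cdk2 had the largest difference there, at 0.87 (adjusted p = 0.284): its F14 libraries, at 46.2 to 74.9 TPM, all lay above its F2 libraries, at 23.8 to 30.9 TPM, and it was called when only the compared groups were fitted (adjusted p = 0.0063). In triploid abdomens Cdk1 was lower at F14 by -1.09 (SE 0.39, adjusted p = 0.0268) and fzy by -1.26 (SE 0.45, adjusted p = 0.0257), 2 of 6 members beside 42.2% of genes and 11.9% called lower. cycB had -1.23 (adjusted p = 0.139) and was called lower under 2 of 9 other settings. Cdk4 missed the threshold at -0.82 (adjusted p = 0.0513) and was called lower under 5 of 9 other settings, DESeq2 among them, and without C68 or C38. Of the muscle markers 2 of 3 were called higher at F14 and of the oocyte markers 0 of 3 were called, and their part was not tested. Both calls were lost without C69, C67 or C66 and when only the compared groups were fitted, and that of Cdk1 also without C37 or C36. Without C68 5 members were lower, among them Cdk1 at -1.80 (adjusted p = 0.00026) and fzy at -2.09 (adjusted p = 0.00031). Here too the share of all genes called without C68 was not kept.

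In male abdomens all members but Skp1 stood at 13.8 TPM or less, and 4 of the 6 were called lower in diploids than in haploids at F15, beside 17.5% of genes called and 12.3% called lower. cycB stood at 10.7, 13.3, 13.7 and 1.7 TPM in the F15 haploids and at 0.39, 1.41, 0.3 and 0.26 TPM in the F15 diploids. Even the lowest haploid, C89, lay above the highest diploid, C97. The log2 difference, diploid minus haploid, was -3.96 (SE 0.81, adjusted p = 0.00114). Cdk1 followed at 3.4, 3.24, 2.18 and 1 TPM against 0.4, 0.27, 1.15 and 0.54 TPM, where 1 diploid library passed the lowest haploid. Its difference was -1.96 (SE 0.48, adjusted p = 0.00445), from 16 to 70 expected counts in haploids and 4 to 21 in diploids.

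fzy stood at 11.9, 13.4, 11.8 and 6.37 TPM in F15 haploids and 3.39, 3.57, 5.09 and 1.88 TPM in F15 diploids, with no overlap. It fell by 1.54 (SE 0.48, adjusted p = 0.025), a call that was lost without each of C99, C97, C96, C87 or C86. Cdk4 stood at 4.17, 3.11, 4.25 and 1.78 TPM against 0.85, 1.6, 1.11 and 1.13 TPM, a difference of -1.44 (SE 0.39, adjusted p = 0.00908). Its overlapping neighbour in the annotation, LOC100122207, was also called lower, and the pair cannot be told apart without strand. Cdk2 had no overlap between the groups but missed the threshold, at -1.11 (SE 0.40, adjusted p = 0.0546), and it was called on total counts, by DESeq2, without C88 and with C46 left out of the fit. Skp1 had -0.28 (adjusted p = 0.444). Over the 6 members the F15 median was -1.49 against -0.13 over all genes. The calls of cycB, Cdk1 and Cdk4 held under every alternative tried. The muscle markers summed to 1400 to 7130 TPM in the haploids and 1341 to 1706 TPM in the diploids, 1 of 3 called lower, and the oocyte markers had 0 of 3 called; their part was not tested.

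At F5 none of 6 members was called by edgeR, beside 0.382% of genes, while cycB and fzy, 2 of 6, had an unadjusted p below 0.05 and DESeq2 called 0. cycB stood at 8.3, 6.72, 9.23, 1.84 and 3.38 TPM in haploids and 0.16, 0.41, 3.45, 0.38 and 2.7 TPM in diploids, the lowest being C46. These groups overlapped, with a difference of -1.94 (SE 0.66, adjusted p = 0.116). It was -2.43 (adjusted p = 0.0396) without C48, the highest diploid, and -1.65 (adjusted p = 0.260) without C46. fzy had 9.61, 8.62, 13.8, 7.15 and 8.31 TPM in haploids and 0.63, 2.88, 7.04, 3.38 and 6.42 TPM in diploids, so every haploid stood above every diploid. Its difference was -1.06 (SE 0.42, adjusted p = 0.166), and -0.78 (adjusted p = 0.382) without C46.

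The F15 ploidy difference was not shown to differ from that at F5. The test of the change gave -2.02 (adjusted p = 0.224) for cycB and -1.50 (adjusted p = 0.145) for Cdk1, and no member was called by edgeR, beside 4.18% of genes, with 2, Cdk1 and Cdk2, at an unadjusted p below 0.05 and 0 called by DESeq2. Without C46 these were -2.32 (adjusted p = 0.15) and -1.65 (adjusted p = 0.118). Between generations 1 member was called in diploid male abdomens, beside 11.7% of genes and 8.92% called lower. Cdk1 was lower at F15 by -1.47 (SE 0.46, adjusted p = 0.0382), with F5 libraries at 0.92, 0.82, 2.31, 1.9 and 1.14 TPM. This call was lost without each of C99, C97, C96, C49 or C48, on the TPM scales and when only the compared groups were fitted, and it was -1.61 (adjusted p = 0.0315) without C46. In haploid male abdomens no member was called by edgeR, beside 12.2% of genes, with 1 member, Skp1, at an unadjusted p below 0.05. Skp1 was called higher at F15 under 7 of 9 other settings, all but DESeq2's size factors and no filter on low counts. It stood at 199, 197, 262 and 302 TPM at F15 against 130, 167, 143, 130 and 137 TPM at F5, with 0.53 (adjusted p = 0.0854).

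**Figure D3:**
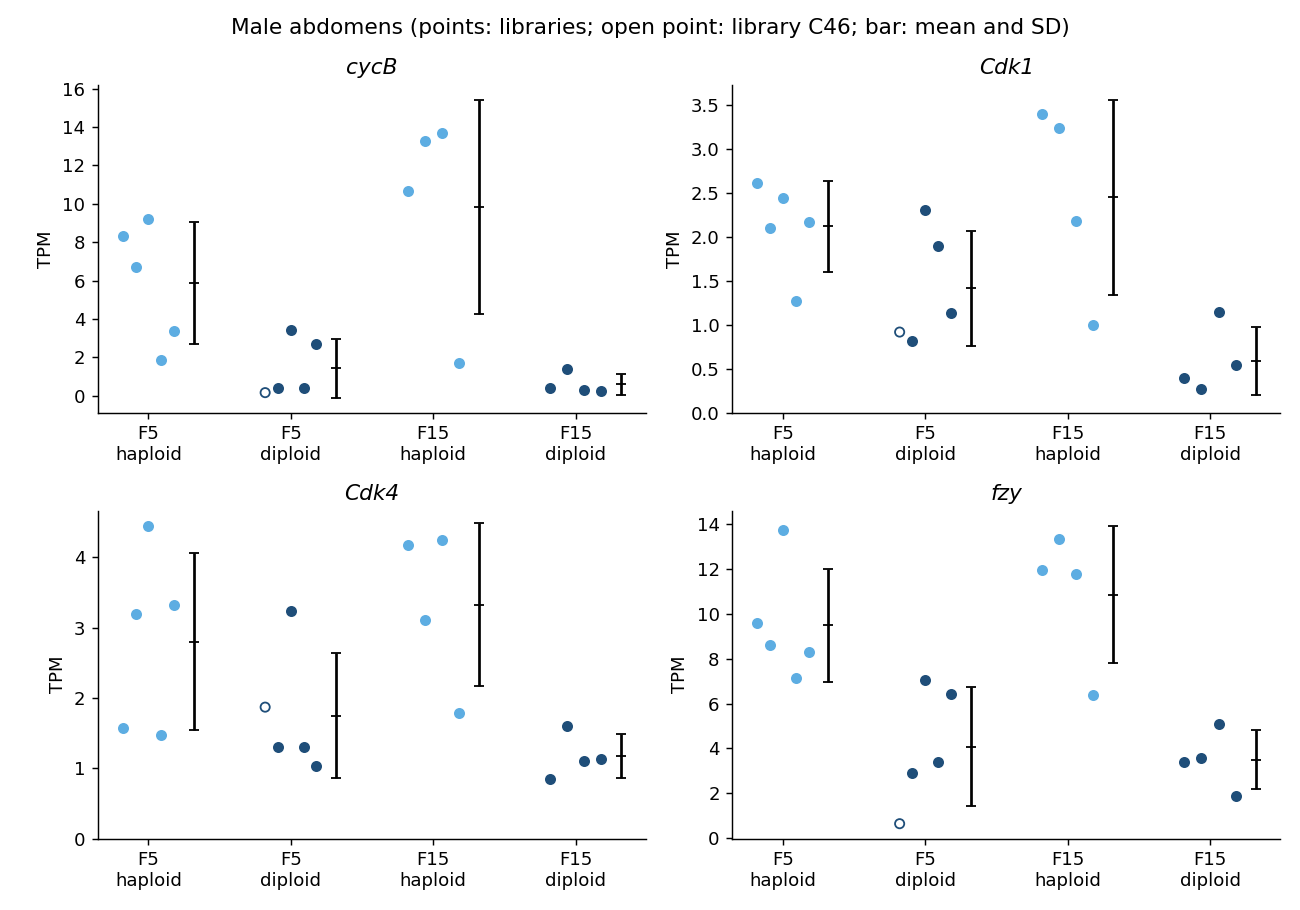
TPM of cycB, Cdk1, Cdk4 and fzy in each of the 18 male abdomen libraries, by generation and ploidy, with group means and SD as bars. The open point is C46, the library with head transcripts. In the F15 groups the diploid libraries of cycB stand at 0.26 to 1.41 TPM and the haploid ones at 1.7 to 13.7 TPM.

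In female heads Cdk4 was the only member called by edgeR for ploidy. At F2 it stood at 1.28, 1.52, 1.29 and 1.3 TPM in diploids and at 5.35, 3.94, 3.43, 4.82 and 5.09 TPM in triploids. The groups were well apart, and the diploid spread was narrow. The difference was 1.55 (SE 0.34, adjusted p = 0.00204), and this call held under every alternative tried. At F14 Cdk4 stood at 5.26, 4.7, 3.77 and 5.02 TPM in diploids and 13, 13.7, 8.12 and 5.56 TPM in triploids, again without overlap. That difference, 0.94 (SE 0.34, adjusted p = 0.0484), lay at the threshold: it was lost in 7 of 8 fits with a compared library left out and under 5 other settings, with adjusted p from 0.0249 to 0.248. Of the 4 genes that overlap a member, 3 were called higher in this F14 contrast, and reads of such pairs cannot be told apart. The change of the ploidy difference between generations was -0.61 (adjusted p = 0.476).

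Cdk4 was thus 1 of 6 members called in each generation, beside 18.6% of genes at F2 (8.28% higher) and 20.9% at F14 (9.46% higher). Skp1 came next at F2, with 90, 92.7, 97.5 and 83.4 TPM in diploids and 128, 130, 113, 106 and 125 TPM in triploids, no overlap and 0.29 (SE 0.11, adjusted p = 0.0617). It was called on total counts and when only the compared groups were fitted, and its overlapping neighbour LOC116416030 was called higher. That neighbour was the only 1 of the 4 overlapping genes called at F2, so LOC100122207, which overlaps Cdk4, was not called there. cycB, Cdk1, Cdk2 and fzy had differences of 0.29, 0.25, -0.36 and 0.64 at F2, with adjusted p from 0.237 to 0.789, and 0.59, 0.54, -0.05 and -0.05 at F14. Muscle markers summed to 2174 to 2775 TPM in F2 diploid heads and 458 to 650 TPM in F2 triploid heads, with 2 of 3 called lower. Or1, the odorant co-receptor, stood at 51.5 to 91.1 TPM in F2 diploid heads and 1.34 to 19.9 TPM in F2 triploid heads, and of the 5 head markers 1 was called higher and 2 lower at each generation. Their part in the Cdk4 values was not tested.

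Diploid female heads also differed between generations, in 2 of 6 members, both higher at F14, beside 16.4% of genes and 6.60% called higher. Cdk4 was higher at F14 by 1.3 (SE 0.35, adjusted p = 0.0145), which held under every alternative tried, and its neighbour LOC100122207 was called higher as well. fzy stood at 0.85, 0.92, 0.5 and 1.11 TPM at F2 and 2.59, 3.26, 2.8 and 2.39 TPM at F14, without overlap. Its difference of 1.27 (SE 0.39, adjusted p = 0.0266) was lost without each of C72, C23, C22 or C21. Of the head markers 1 of 5, white, was called lower at F14, of the 2 oocyte markers tested 1, Hb, was called higher, at 0 to 0.04 TPM at F2 and 0.52 to 1.58 TPM at F14, and 0 of 3 muscle markers were called. Their part was not tested. In triploid heads 1 member, Skp1, was called lower at F14, beside 43.6% of genes and 21.4% called lower, and its direction depended on the scale. In CPM it stood at 66.9 to 73.5 at F2 and 51 to 62.9 at F14, a difference of -0.34 (SE 0.11, adjusted p = 0.0153), while on TPM the sign was turned, at 0.15, and on total counts the call was lost. Cdk1 missed the threshold there at 0.86 (adjusted p = 0.0516) and was called higher under 7 of 9 other settings and without C63, with an adjusted p from 0.00461 to 0.237 over all alternatives. Cdk4, at 0.69 (adjusted p = 0.0799), was called higher under 4 of 9. Of the head markers 1 of 5 was called higher in triploid heads, and of the 2 oocyte markers tested 1 was called higher, and their part was not tested.

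**Figure D4:**
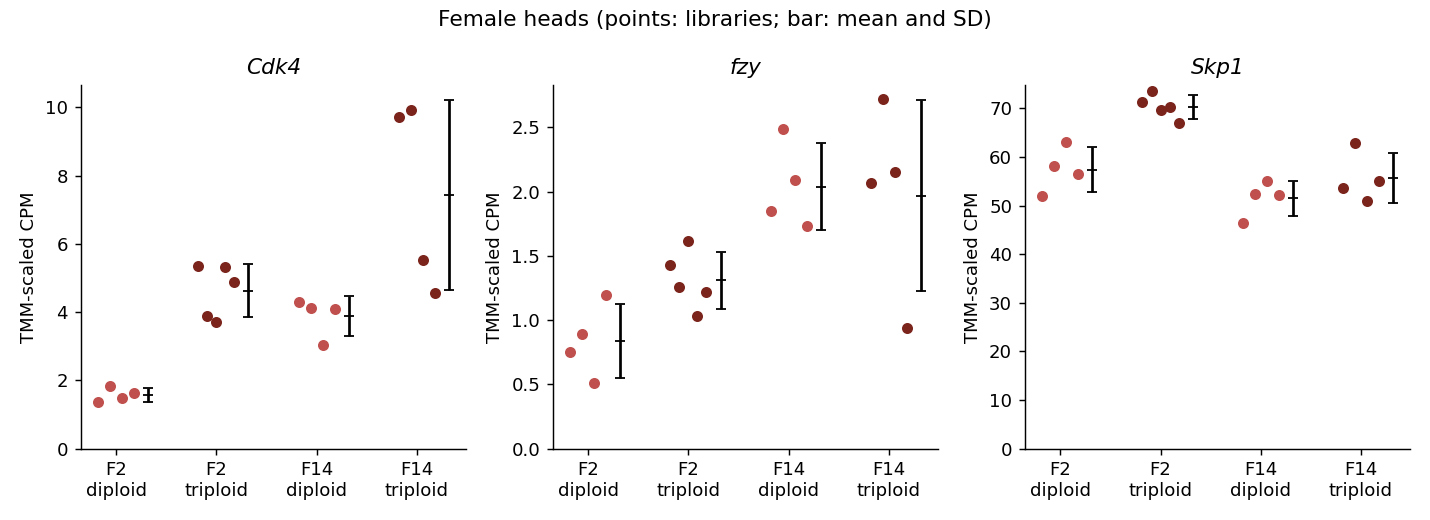
CPM of Cdk4, fzy and Skp1 in the 17 female head libraries, by generation and ploidy, with each point a library and bars giving mean and SD. Cdk4 is lowest in the F2 diploid heads, at 1.36 to 1.82 CPM, and highest in the F14 triploid heads, at 4.57 to 9.92 CPM.

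Male heads gave no called member by edgeR for ploidy. At F5, diploid minus haploid differences ran from -0.60 to 0.39 with adjusted p from 0.607 to 0.937, beside 0.424% of genes called. At F15 they ran from -0.93 to 0.49 with adjusted p from 0.392 to 0.639, beside 0.0255% of genes. The test of the change between generations called no member either, at adjusted p from 0.761 to 0.962, beside 0.00849% of genes, and for female heads it gave adjusted p from 0.476 to 0.893, beside 6.25%. F15 against F5 called no member in haploid heads, beside 22.9% of genes, or in diploid heads, beside 10.2%. Over these 6 head comparisons 1 member, Cdk4 in haploid male heads between generations, had an unadjusted p below 0.05, and DESeq2 called 0. Cdk4 in F5 diploid male heads showed how much a single library could weigh, with 1.44, 1.81, 1.97 and 0.89 TPM in 4 libraries and 5.56 TPM in C42.

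Over the 8 ploidy contrasts, 7 of 48 pairs of a member and a contrast were called, beside 0.0255% to 20.9% of all genes in the single contrasts. Of these pairs, 2 were higher in the larger ploidy, both of them Cdk4 in female heads, and 5 were lower, all in abdomens of F14 or F15. With DESeq2's size factors the split was 1 higher and 5 lower, on log2(TPM + 0.1) 1 higher and 8 lower, and with the compared groups only 5 higher and 4 lower. Over the 8 generation contrasts 6 of 48 pairs were called, 2 higher and 4 lower, beside 0.171% to 43.6% of all genes in the single contrasts. There were 4 higher and 3 lower on total counts, and 4 higher and 5 lower by DESeq2. On log2(TPM + 1) there were 6 higher and 4 lower, and with the compared groups only 6 higher and 1 lower. The shares of all genes under these other settings are not given here.

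**Figure D5:**
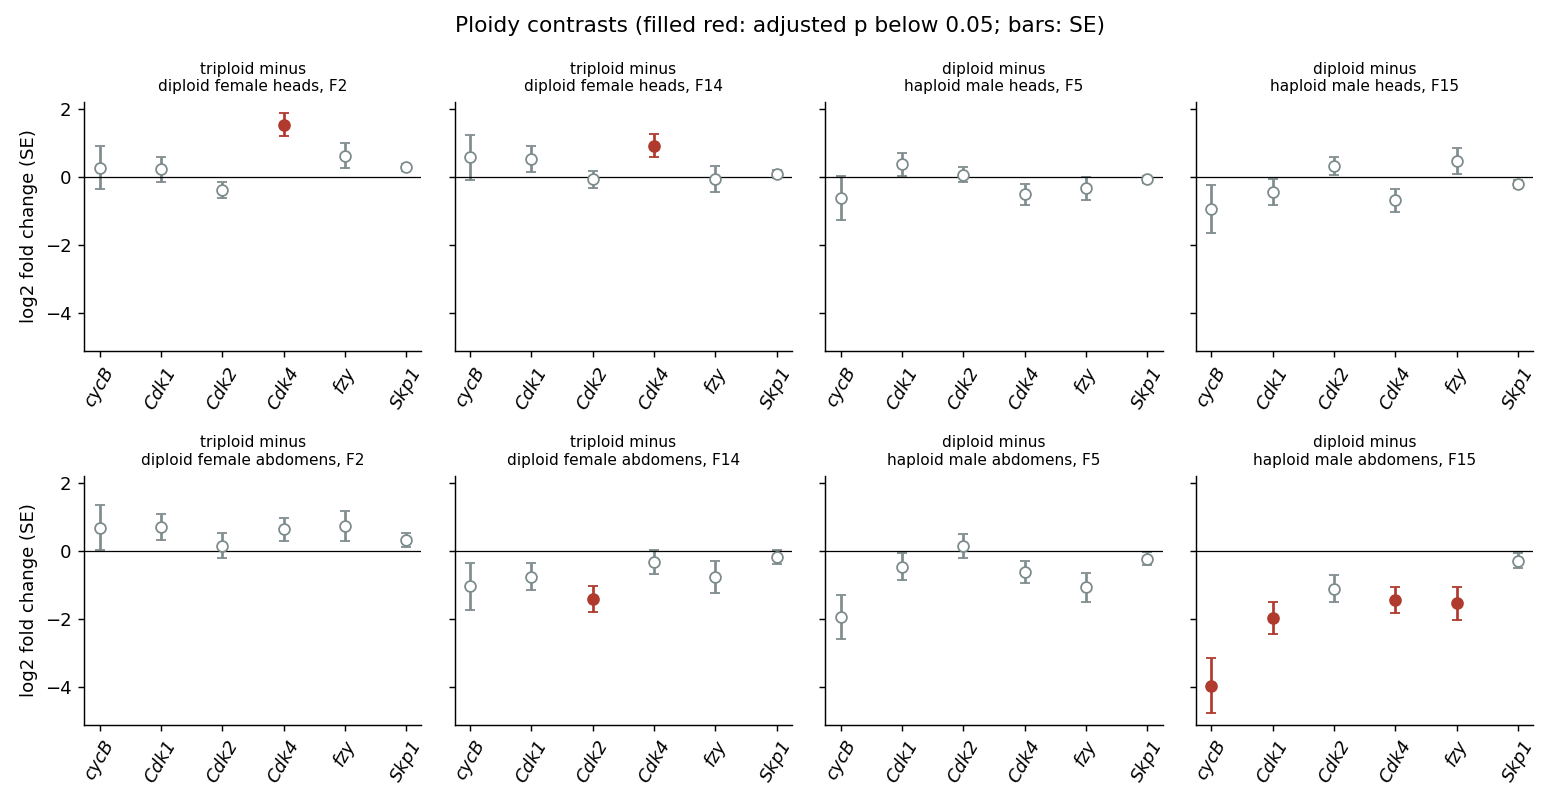
Log2 difference with its SE for each member in the 8 contrasts of the larger with the smaller ploidy, 4 in heads and 4 in abdomens. Filled red points were called. Cdk4 in female heads, at 1.55 and 0.94, lies above 0, and the 4 members called in F15 male abdomens, from -3.96 to -1.44, lie below it.

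Other cell cycle genes were read from a list of 14, made of cycD, Cdk5, Smc3, Cenp-a and 10 genes added once the symbols in the table were known. In abdomens 13 of 14 were lower in haploid males than in diploid females and 13 of 14 in diploid males, with 0 higher and medians of -2.02 and -2.28. Over all genes 35.1% and 34.9% were called lower in these contrasts, with medians of 0.60 and 0.61. cycD, the G1 cyclin that pairs with Cdk4, had log2 differences of -5.27 in haploid and -4.56 in diploid males. Bora, which in flies helps Aurora A act, had -4.73 and -4.46, and Smc2, a condensin subunit, -3.70 and -3.23. Plk4, the kinase of centriole duplication, had -3.15 and -3.46, and Melk, a kinase named for its maternal and embryonic expression in mammals, -2.78 and -3.01. Smc3, a cohesin subunit, had -2.21 and -2.09, and Cenp-a, the centromeric histone, -1.92 and -2.44. Cdk5, known for its work in neurons more than in dividing cells, moved least of the named genes, at -0.68 and -0.76.

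The list followed the members only in part within a sex. In triploid female abdomens 10 of 14 were lower at F14 than at F2 and 1, E2f8, was higher, with a median of -0.81, beside 11.9% of all genes called lower, 42.2% called in either direction and a median of 0.17. The muscle markers moved in the same contrast, with 2 of 3 called higher. Between triploid and diploid abdomens 0 of 14 were called at F14, beside 19.9% of all genes, and 1 at F2, beside 7.49%. That gene at F2, E2f8, was lower by -1.04 (adjusted p = 0.0249). In F15 male abdomens 1 of 14 was called, RPA2, lower in diploids by -0.79 (adjusted p = 0.0286), beside 17.5% of all genes. cycD, the partner of Cdk4, had 0.09 (adjusted p = 0.956) there, where Cdk4 was called lower. E2f8 and RPA2 were named after their values were seen.

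The likeness of patterns was described by Pearson's r of log2(CPM + 1) over the 16 group means, among 10724 genes. The points share libraries and depth, and the female abdomens carry most of the range. Among the members cycB and fzy were most alike, at 0.994, Cdk1 and Cdk4 had 0.987, and Cdk2 and Skp1 were least alike, at 0.743. The nearest genes were ranked only among 530 genes with a symbol that is not of the LOC form. Of these, Melk at 0.997, nanos at 0.995 and Ndc1 at 0.995 were nearest to Cdk1. Thoc4 at 0.991, Ndc1 at 0.988 and Melk at 0.984 were nearest to Cdk4. Nearest to fzy were Plk4 at 0.991, Eve at 0.989 and Nop60b-like at 0.987, and to cycB Nop60b-like at 0.987, Cct7 at 0.985 and Plk4 at 0.985. Nearest to Skp1 were Cad at 0.987, Dnmt1a at 0.976 and Ccdc86 at 0.971, and to Cdk2 Tbp at 0.979, Cwf19l1 at 0.974 and Mak10 at 0.972. Such values were common: r exceeded 0.95 for 11.39% of genes with Cdk1, 9.64% with Cdk4, 7.98% with cycB, 7.72% with fzy, 3.41% with Skp1 and 2.79% with Cdk2.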

How the data were processed

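Poly-A RNA of heads and abdomens was sequenced by the authors in 70 libraries of 16 groups, named here by generation, ploidy, sex, tissue and the library codes of the labels. RNA was extracted without DNase treatment and libraries were made with the NEBNext Ultra RNA kit, per the labels' protocols. The authors deposited a table of expected counts and a table of TPM. STAR 2.7.11a and RSEM 1.3.1 are named, per the submitters' processing notes; the sources used here do not name the genome build. Of the expected counts 18.2% were not whole, and all were rounded. Symbols were matched to the RefSeq table of the assembly Nvit_psr_1.1 for all 14621 genes.

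edgeR 4.0.16 (R 4.3.3) fitted group means by quasi-likelihood with TMM scaling and its filter on low counts, in 35 head libraries (11785 genes), 35 abdomen libraries (12308 genes) and all 70 (12964 genes, for tissue). Adjustment for multiple tests (Benjamini-Hochberg) ran separately in each of 27 contrasts. Alternatives were DESeq2 1.42.0, DESeq2's size factors, total counts, no filter, the compared groups only, limma 3.58.1 on log2(TPM + 1), with and without a filter at a mean of 0.5 TPM, and on log2(TPM + 0.1), and each library left out; a fit with C46 left out was chosen after seeing the data. The test was checked on simulated data. No 2 libraries of a group agreed within sampling noise. Named genes are the 6 members, the markers and 8 other cell cycle genes (the 4 on the list first written and the 4 added ones with the largest change). More than 8 met the written rule, which only capped the names at 8, so those 4 added ones were picked on these same values. E2f8 and RPA2 were named after their values were seen. For each member the 3 genes with a symbol nearest in pattern were named too. The members and lists were chosen with earlier results of these data known.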

Additional observations from a re-analysis of the deposited data

Results flagged for a closer look

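In 96 groups of 4 or 5 libraries (6 members in 16 groups) the highest or lowest CPM was compared with the rest of its group, and 11 values stood apart. Chance alone gives about 1 in 20 groups. In the F14 triploid female abdomens C68 stood apart in 4 tests: cycB at 1331 CPM (others 226.1 to 297.8), Cdk1 at 339.1 (80.82 to 117.5), Cdk4 at 218.8 (65.83 to 91.83) and fzy at 357.6 (73.12 to 98.35). Among the other female abdomens, F14 diploid C78 was low for cycB at 897 CPM (others 1151 to 1185), and F2 diploid C30 was high for Cdk4 at 174.2 (106.2 to 114.7). In male abdomens F15 diploid C97 was high for cycB at 2.456 CPM (0.4963 to 0.7143), and F5 diploid C48 for Cdk4 at 4.651 (1.931 to 2.533). In heads F5 diploid male C42 was high for Cdk4 at 5.982 CPM (1.369 to 2.094), F15 haploid male C81 was high for Cdk2 at 4.082 (2.502 to 2.716), and F14 diploid female C73 was low for Cdk4 at 3.028 (4.092 to 4.298).

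The effect of ploidy in female abdomens was called different between F14 and F2, by -1.46 for Cdk1 and -1.57 for Cdk2 on the log2 scale, by the edgeR interaction term. The Cdk1 term lost its call in 14 of 17 fits with 1 library left out, and neither term was called without C69. The abdomen-to-head difference was larger in females than in males by 7.0 for cycB, 7.21 for Cdk1, 3.10 for Cdk2, 5.69 for Cdk4, 5.61 for fzy and 1.79 for Skp1, by the same kind of term.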

How the results depend on the processing

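Of the 47 called fold changes 33 passed the threshold in the same direction under every alternative, and the others lost it under at least 1. With each of the 70 libraries left out in turn, the members called ranged from 4 to 10 for the generation contrasts (6 with all libraries), 0 to 5 for the change of the ploidy difference (2), 6 to 12 for ploidy (7), 13 to 16 for sex (15), 10 to 12 for tissue (11) and 6 to 6 for tissue by sex (6). Generation gave 10 calls on log2(TPM + 1) with its filter and 10 without. The change of the ploidy difference gave 5 on log2(TPM + 1) with its filter and 5 without, 4 on log2(TPM + 0.1), 4 with the compared groups only and 1 on total counts. With C46 left out, a choice made after seeing the data, there were 8 calls for generation, 3 for the change of the ploidy difference, 8 for ploidy, 15 for sex, 12 for tissue and 6 for tissue by sex. Skp1 turned its sign in F14 female heads (0.11 with all libraries) without C71 (-0.0036) and without C62 (-0.0198), with a range of -0.0198 to 0.0935 over all 8 libraries left out, and in triploid heads between generations (-0.34) on the 3 TPM scales (0.151, 0.152 and 0.151); the cause was not tested. No paired analysis was possible because the library codes are not replicate numbers shared between groups. Depth limits the members in heads and male abdomens, where cycB in heads had at most 16 expected counts.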
